A study of Neurospora crassa with 22 samples.

Results

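In the filamentous fungus Neurospora crassa, 35 genes lay close to peaks of both cellulose regulators, CLR-1 and CLR-2, 4 h after transfer to cellulose and were named by no peak of the xylan regulator XLR-1. They were 35 of the 8640 genes that the deposited peak tables name at all, or 0.405%. A gene was taken when at least 2 of 3 CLR-1 lists and at least 2 of 3 CLR-2 lists from Avicel named it, each with a peak centre within 5000 bp of the gene's listed start codon. It was dropped when any of 3 XLR-1 lists from Avicel or 2 XLR-1 lists from xylan named it at any distance. The genes were chosen by the peaks themselves, so the CLR-1 and CLR-2 values at 4 h on Avicel, positions included, are given as a description, without a test.

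CLR-1 and CLR-2 are zinc binuclear cluster transcription factors that Neurospora needs to grow on cellulose. XLR-1, the relative of the Aspergillus factor XlnR, is needed for growth on xylan, the main hemicellulose. Genes for plant cell wall enzymes can carry sites of more than one of these factors, and the 35 are the genes that the tables give to the cellulose pair without XLR-1.

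The samples come from chromatin immunoprecipitation followed by sequencing, 22 in all, of which 17 are analysed here through a table of peaks. The others, all from Avicel at 24 h, are inputs and pulldowns of GFP or mCherry alone. CLR-1-GFP on Avicel at 4 h (3 samples), on sucrose at 4 h (2 samples) and on Avicel at 24 h (1 sample) came from a deltaclr1::HygR, mat A strain carrying his-3::p_ccg1::clr1-GFP. mCherry-CLR-2 on Avicel at 4 h (3 samples) came from a deltaclr2::HygR, matA strain carrying his-3::p_ccg1::mCherry-clr2. The single CLR-2 sample at 24 h came from a mat a heterokaryon that carries the same construct with no clr-2 deletion in its label. XLR-1-GFP on Avicel (3 samples) and on xylan (3 samples), both at 4 h, came from a deltaxlr1::HygR strain carrying his-3::p_ccg1::xlr1-GFP. V5-tagged CLR-1 on Avicel at 4 h (1 sample) came from a clr1-V5::HygR, mat a, deltamus51::bar strain, and its label gives the antibody as none. In the GFP and mCherry strains the ccg-1 promoter, not the factor's own, drives the tagged protein. All cultures grew for 16 h on sucrose before transfer, and the times carry no unit in the labels and were read as hours. Nothing in the labels says whether the replicates were separate cultures, and which library gave which numbered list is not given.

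The 17 lists held 42691 peaks, between 701 and 8194 each. Each peak has a tag count, between 10 and 40878, and a fold, which is the authors' ratio of tags in the peak to the local background. Total reads per library were not analysed here, so the depth is unknown and folds were compared between lists only as ranks. A fold percentile is the rank of a gene's best peak among all peaks of its list, so that 100 is the highest fold of that list. No peak list of an input or tag-only sample was analysed here, so the background is the share of all genes that a list names.

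CLR-1 named 1232 genes in at least 2 of its 3 Avicel lists, 14.3% of all genes named, and CLR-2 named 1045, or 12.1%. Both factors together gave 462 genes, or 5.35%. XLR-1 then removed 427 of these 462. Its 5 lists left 1955 genes untouched in all, or 22.6% of genes named. The largest XLR-1 list, the third from Avicel, named 57.4% of all genes within 5000 bp and was the only XLR-1 list for 86 of the genes removed. Without it the count was 121 in place of 35. Leaving out one CLR list, which asks for both of the other 2, gave 15 genes without CLR-1 list 1, 21 without CLR-1 list 2 and 21 without CLR-1 list 3. The same step gave 18 without CLR-2 list 1 and 20 without CLR-2 list 3.

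The genes just outside the group include well-known cellulase genes. One of these, cbh-1, a cellobiohydrolase gene (NCU07340; 4311049 to 4314145 on chromosome IV), had CLR-1 folds of 13.4 to 28.8 and CLR-2 folds of 0.28 to 8.12. It was kept out by a single XLR-1 peak, in Avicel list 3, with a fold of 10.1 and a summit 6 bp from a CLR-1 summit. The cellobiohydrolase gene gh6-3 and the endoglucanase genes gh5-1 and gh7-1 were kept out by that list alone. So were the lytic polysaccharide monooxygenase genes gh61-1, gh61-4 and gh61-7, as well as clr-2 itself. The XLR-1 folds of these 7 genes ran from 6.54, at gh7-1 and gh61-1, to 10.8, at gh61-7. The distance from the XLR-1 summit to the nearest CLR-1 summit ran from 385 bp at gh6-3 to 1546 bp at gh61-1, where the peaks of the 2 factors did not overlap. The beta-glucosidase gene gh3-3 was kept out by xylan list 3 alone, with a fold of 6.69 and a summit 59 bp from a CLR-1 summit. The absence of these genes from the 35 therefore rests on 1 XLR-1 peak list each. On the distance side, 2 members had their nearest CLR-1 peak centre 4000 to 5000 bp from the start codon, and a limit of 6000 bp would have added 4 genes.

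The members lie on all 7 chromosomes, with 5 on chromosome I, 3 each on II, III and IV, 10 on V, 5 on VI and 6 on VII. They form 32 loci, because 3 pairs of neighbours share peaks in the intergenic region between them: NCU05020 with NCU05022, NCU08866 with NCU08867, and NCU09681 with NCU09682. None of the 35 has a gene symbol of its own in the RefSeq annotation of assembly NC12, whose coordinates the text uses. Only 7 members were in all 6 lists, while 14 had the minimum of 2 CLR-1 and 2 CLR-2 lists, 10 had 2 and 3, and 4 had 3 and 2.

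Members stood in the middle of the CLR-1 lists by fold. CLR-1 list 1 named 31 of them with folds from 2.38 to 14.5 and a median of 4.60, against 4.99 over all peaks of that list. CLR-1 list 2 named 25 with a median fold of 7.70 against 8.65, and CLR-1 list 3 named 25 with a median of 4.36 against 5.05. Their median fold percentiles in the 3 lists were 45.9, 41.5 and 39.8. The 273 genes that had both CLR factors together with XLR-1 in at least 2 Avicel lists stood at 79.4, 86.1 and 71.5 in the same lists. The lists name 14.8%, 10.8% and 18.8% of all genes, and since they chose the members nothing is read from the members' counts.

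CLR-2 folds were low in absolute terms. CLR-2 list 1 named 34 members with a median fold of 0.60, and 32 of those folds were below 1. The control and scaling behind these folds are not given, and 27 of the 34 peaks had a deposited false discovery rate of 5% or less, so a fold below 1 is not read as a lack of signal. Over all peaks of that list 95.7% had a fold below 1. CLR-2 list 2 named 21 members with a median fold of 2.39, and none of their peaks had a deposited false discovery rate of 5% or less (median 100%). The median over all peaks of that list was also 100%. None of the 86 genes with all 3 factors that it named reached 5% or less either. CLR-2 list 3 named 32 members with a median fold of 1.19, 6 of them below 1. By rank the members stood at median percentiles of 66.8, 62.4 and 53.6, against 72.0, 73.2 and 86.0 for the genes with all 3 factors. The 3 lists name 13.9%, 6.72% and 29.3% of all genes. Counting only CLR peaks with a fold of at least 1 left 16 genes by the same rule. Counting only peaks with a false discovery rate of at most 5% also left 16.

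**Figure D1:**
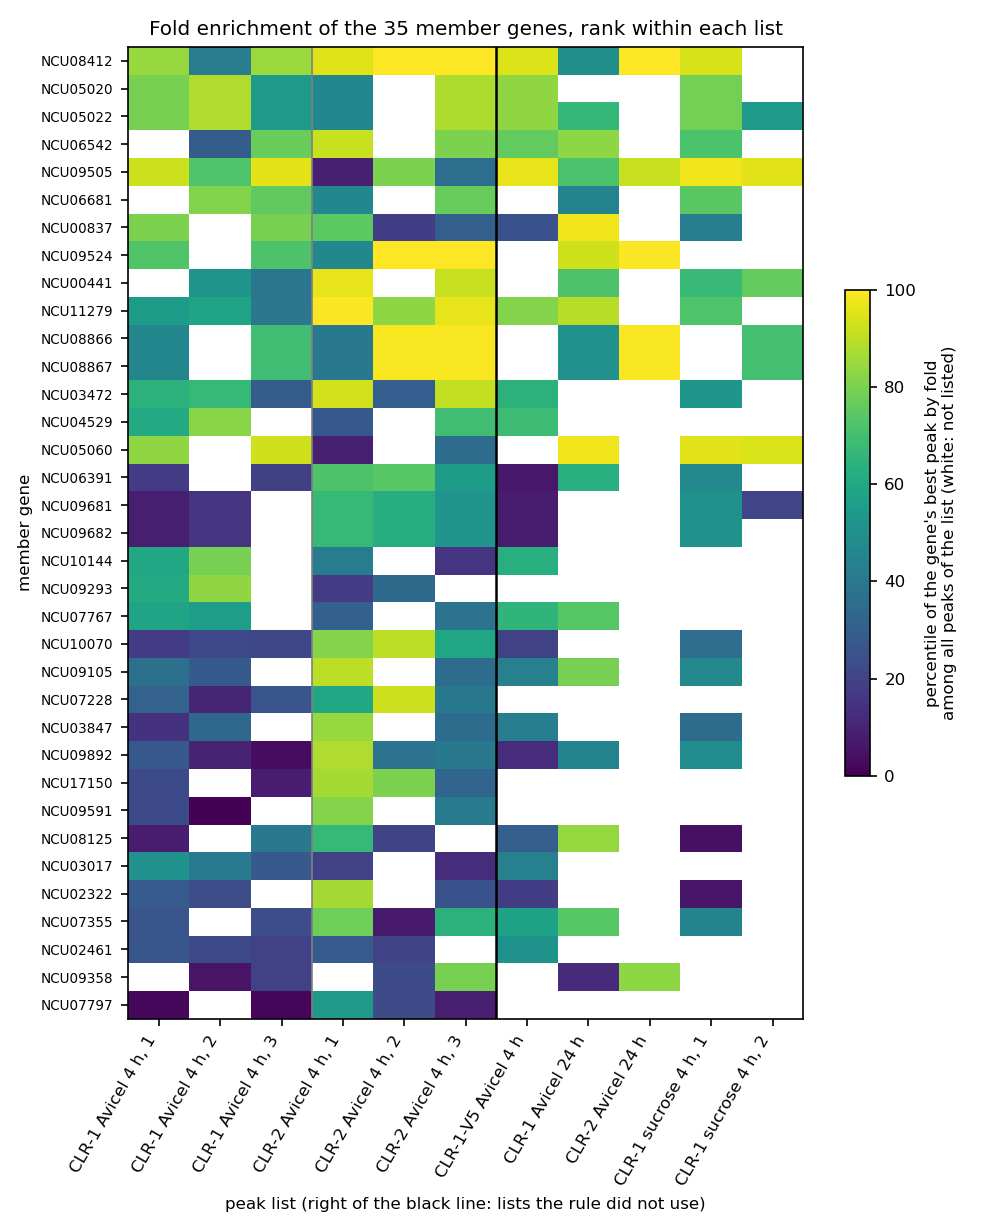
Fold percentile of the best peak of each of the 35 members (rows, ordered by their median percentile in the 6 CLR Avicel 4 h lists) in 11 peak lists (columns). White cells are genes not listed, and the lists to the right of the black line were not used to choose the genes. NCU08412 stands at 100 in CLR-2 list 2 and NCU07797, in the last row, at 8.52 over its lists.

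NCU08412 (chromosome II, 3974095 to 3975441), which encodes an endo-mannanase that cuts the hemicellulose mannan, ranked first and was the only member among the 85 genes of 8 lists of wall degradation, transport, regulation and reference genes. Its CLR-1 folds were 10.8, 7.76 and 10.2 in lists 1 to 3. Its CLR-2 folds were 0.97, 13.3 and 9.38, and the 13.3 was the highest fold of CLR-2 list 2. Separate CLR-1 positions, 2 in number, lay upstream of it. CLR-1 summits fell 1876 bp and 287 bp upstream of the start codon in list 1, 1879 bp upstream in list 2 and 300 bp upstream in list 3. The 3 CLR-2 summits, 248, 274 and 292 bp upstream, all fell at the nearer position. V5-tagged CLR-1 had both positions, 1837 bp and 292 bp upstream, with folds of 7.74 and 4.69. On sucrose, CLR-1 list 1 held only the farther position, 1851 bp upstream with a fold of 8.41, and sucrose list 2 did not name the gene. At 24 h on Avicel the CLR-2 fold was 19.0, with a summit 312 bp upstream, and the CLR-1 peaks lay 1883 and 339 bp upstream with folds of 9.04 and 6.04. A further CLR-1 peak at 24 h had its summit 1008 bp inside the gene with a fold of 3.61.

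NCU09505 (chromosome III, 94069 to 96232) had the highest CLR-1 folds among the members in lists 1 and 3, 14.5 and 17.3, beside 11.8 in list 2. Its CLR-2 folds were only 0.28, 2.67 and 1.02. CLR-1 thus stood at percentiles of 92.4, 72.3 and 95.9 there, and CLR-2 at 8.71, 80.5 and 36.1. It was the only member named in all 5 CLR lists that the rule did not use, with a V5 fold of 8.96, sucrose folds of 10.9 and 3.66, and 24 h folds of 10.4 for CLR-1 and 4.91 for CLR-2. The summits lay at most 284 bp upstream of the start codon in the 6 lists at 4 h on Avicel.

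NCU09524 (chromosome III, 14104 to 16140) and the divergent pair NCU08866 (chromosome V, 77291 to 78828) and NCU08867 (73320 to 75570) had their highest CLR-2 ranks in lists 2 and 3. NCU09524 had CLR-1 folds of 7.45 and 7.48 in lists 1 and 3 and CLR-2 folds of 0.48, 9.58 and 5.58. All 5 summits lay between 286 and 334 bp upstream of its start codon, within the annotated gene ahead of the coding part. NCU08866 and NCU08867 share 1 peak in a gap of 1720 bp, with CLR-1 folds of 4.60 and 6.96 in lists 1 and 3 and CLR-2 folds of 0.44, 6.29 and 3.82. At these 2 loci CLR-2 lists 2 and 3 placed the peak above the 98th percentile, whereas CLR-2 list 1 placed it at 46.8 for NCU09524 and 40.5 for NCU08866.

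NCU05020 (chromosome VI, 4047775 to 4049947) and NCU05022 (4039323 to 4040275) are transcribed away from a shared peak in a gap of 7499 bp. Its CLR-1 folds were 9.07, 17.3 and 5.36 and its CLR-2 folds 0.48 and 1.68 in lists 1 and 3. The 17.3 was the highest member fold in CLR-1 list 2. NCU06542 (chromosome IV, 1584859 to 1585996) had CLR-1 folds of 5.99 and 8.44 in lists 2 and 3 and CLR-2 folds of 0.87 and 1.52 in lists 1 and 3. Its summits lay 89 to 124 bp upstream. NCU06681 (chromosome V, 4256025 to 4259192) had CLR-1 folds of 13.8 and 8.15 and CLR-2 folds of 0.48 and 1.46 in the same lists. Its 4 summits lay 1123 to 1193 bp upstream of the start codon.

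NCU00441 (chromosome III, 3870217 to 3873013), whose upstream neighbour gnb-1 encodes a G protein beta subunit, differed in position. Its summits lay 238 to 266 bp downstream of the start codon for both factors, with CLR-1 folds of 8.76 and 4.30 in lists 2 and 3 and CLR-2 folds of 1.03 and 1.83 in lists 1 and 3. NCU11279 (chromosome V, 2625642 to 2626879) had the highest member fold in CLR-2 list 1, 1.63, and CLR-2 folds of 2.75 and 2.29 in lists 2 and 3. Its CLR-1 folds were 5.4, 9.67 and 4.36. By rank its CLR-2 peaks stood at 99.5, 83.0 and 96.5 and its CLR-1 peaks at 55.2, 58.4 and 39.8. NCU00837 (chromosome I, 7002702 to 7004301) was among the members whose best peaks of the 2 factors fell apart. Its median summit distance, taken from the closest peaks of each pair of lists, was 2020 bp. CLR-1 had its best summits 2199 and 2186 bp downstream of the start codon, past the end of the gene and towards gh61-7, with folds of 9.24 and 8.84. The CLR-1 folds at gh61-7 were the same. The XLR-1 peak of Avicel list 3 that kept gh61-7 out overlapped a CLR-1 peak, with the nearest summits 528 bp apart. In CLR-1 list 3 the downstream peak was the only one within the limit that named NCU00837. A weaker CLR-1 peak of list 1, with a fold of 3.1, had its summit 1720 bp upstream, 617 bp from the closest CLR-2 summit. CLR-2 had its best summits 1103, 2472 and 1102 bp upstream, with folds of 0.66, 2 and 0.97.

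The other 20 members had lower ranks, with median percentiles from 8.52 to 65.6. They are NCU02322, NCU02461, NCU03017, NCU03472, NCU03847, NCU04529, NCU05060, NCU06391, NCU07355, NCU07767, NCU07797, NCU08125, NCU09105, NCU09358, NCU09591, NCU09681, NCU09682, NCU09892, NCU10070 and NCU10144. Their median CLR-1 folds were 3.21, 5.32 and 3 in lists 1 to 3, and their CLR-2 folds did not pass 0.91, 2.99 and 1.80. NCU05060 had the highest CLR-1 folds of these in lists 1 and 3, 10.4 and 14, and NCU04529, next to the laccase gene lacc, had the highest in list 2, 14.3. The remaining 3 members, NCU07228, NCU09293 and NCU17150, are described with the lists that did not name them.

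Lists that played no part in choosing the genes show how far the members recur. V5-tagged CLR-1 named 23 of 35, or 65.7%, where it named 9.44% of all genes and 11.9% of the 6874 genes with a listed start codon. Genes with all 3 factors were at 75.8%, while 83 genes with CLR-1 alone were at 31.3% and 47 genes with CLR-2 alone at 19.1%. In 18 of the 23 the V5 summit lay within 100 bp of a CLR-1-GFP summit of the same gene (median 26 bp). For the genes with all 3 factors this was so in 192 of 207. With 1 V5 library there is no replicate check of these shares.

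On sucrose the 2 CLR-1 lists differed. Sucrose list 1 named 21 of 35 members, or 60%, against 10% of all genes, and 18 of the 21 summits lay within 100 bp of a summit from Avicel. Sucrose list 2 named 7 members, or 20%, against 23.5% of all genes, a share no higher than the background. Named in both lists were 5 members, or 14.3%, against 5.38% of all genes. Of the genes with a listed start codon, 12.6% were in sucrose list 1, 29.6% in sucrose list 2 and 6.76% in both. For the genes with all 3 factors the shares were 69.6%, 46.9% and 33.7%. The members' median fold was 3.31 in sucrose list 1, close to 3.28 over all its peaks. It was 2.5 in sucrose list 2, against 2.11 over all its peaks, at a median percentile of 70.0 where the genes with all 3 factors stood at 73.8.

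At 24 h on Avicel the CLR-1 list named 19 members, or 54.3%, but it named 61.3% of all genes. Of the 19, 9 had a summit within 100 bp of a 4 h summit, or 47.4%, against 94 of 229, or 41%, of genes with all 3 factors. The median distance had the other order, 572 bp for the members and 235 bp for the genes with all 3 factors. The share of members named was below that of all genes. Of the 6874 genes with a listed start codon, the only ones that can count within 5000 bp, the list named 77%. The members' share moved with the rule, to 33.3% without CLR-1 list 3 and 72.7% without XLR-1 Avicel list 3. It was 80% with a limit of 1500 bp and 76.6% with no limit. Both backgrounds were counted at 5000 bp, so they do not match the settings that change the limit. Genes with all 3 factors were at 83.9% and genes with CLR-1 alone at 84.3%. The tables give no false discovery rate for it, and each of these comparisons rests on 1 library.

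**Figure D2:**
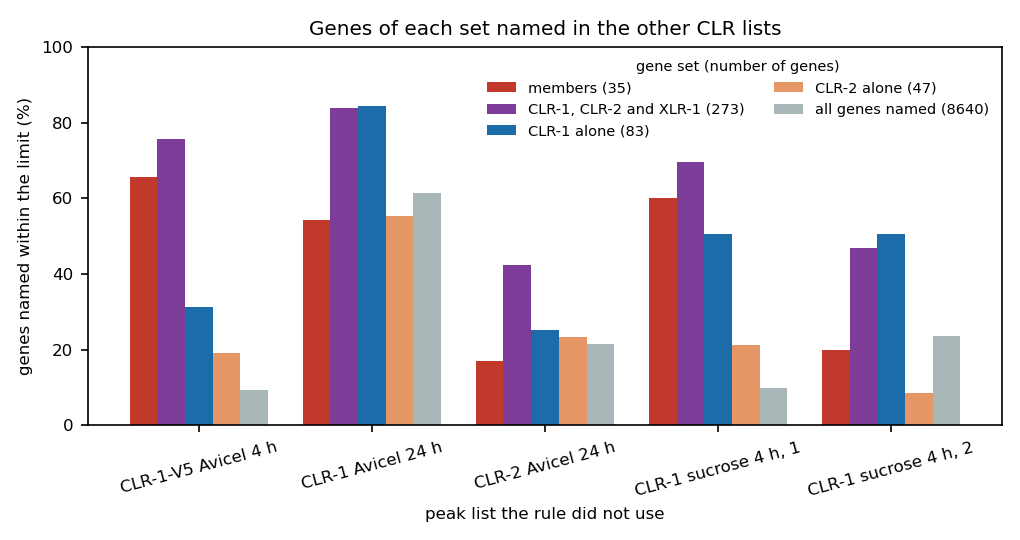
Percent of genes named within 5000 bp (vertical axis) in the 5 CLR lists that the rule did not use (groups of bars), for 5 sets of genes with their sizes in the legend. The members reach 65.7% in the CLR-1-V5 list and 60% in sucrose list 1, and lie below all genes in the CLR-1 24 h, CLR-2 24 h and second sucrose lists.

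CLR-2 at 24 h named 6 members, or 17.1%, against 21.4% of all genes and 26.9% of genes with a listed start codon. The count was no higher than the background, but 4 of the 6 genes, from 3 loci, stood above the 98th percentile of that list. The 24 h folds were 19.0 at NCU08412, 13.4 at NCU09524, 11.8 at NCU08866 and NCU08867, 4.91 at NCU09505 and 3.6 at NCU09358. Their median percentile was 98.9, against 65.3 for 116 genes with all 3 factors in the list. The same 6 had 4 h folds of 2.03 to 13.3 (median 6.29) in CLR-2 list 2, where 15 other members had 1.87 to 3.20 (median 2.15). In CLR-2 list 3 they had 1.02 to 9.38 (median 3.82), where 26 others had 0.76 to 2.29 (median 1.12). In CLR-2 list 1 the order was the other way, with a median of 0.44 for 5 of them against 0.60 for 29 others. The ranges of both sets overlap in each list. The share of 17.1% became 34.7% without XLR-1 Avicel list 3, 33.3% without CLR-2 list 1 and 9.52% without CLR-1 list 3. The 24 h library is a single one from a heterokaryon, so time, strain and library cannot be told apart.

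**Figure D3:**
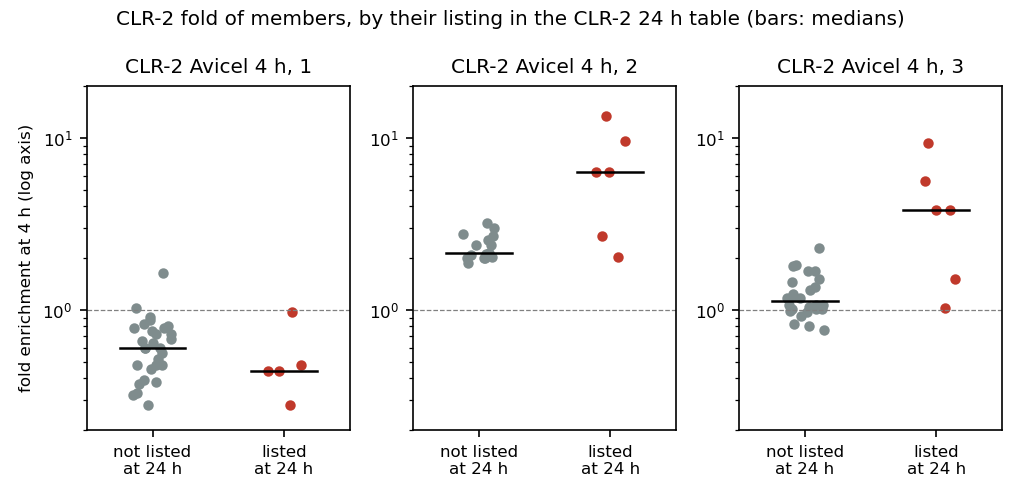
CLR-2 fold at 4 h (vertical log axis) of members not listed and listed in the CLR-2 24 h table, in CLR-2 Avicel lists 1, 2 and 3 (panels). Points are genes, black bars are medians and the dashed line is a fold of 1. The listed genes have medians of 6.29 and 3.82 in lists 2 and 3, above 2.15 and 1.12 for the genes not listed, and 0.44 against 0.60 in list 1.

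Within a gene, the 2 factors often peaked at the same place. The median distance between CLR-1 and CLR-2 summits was 137.5 bp over the 35 members, with a range from 14 bp at NCU00441 to 2507 bp at NCU07228. It was within 100 bp at 15 members and within 500 bp at 26. Genes with all 3 factors had a median of 51 bp, and 155 of 273 were within 100 bp. The rule used these peaks, so the distances are a description. The median was 264 bp without CLR-2 list 1 and 295.75 bp without CLR-2 list 3. Of the members outside the list of the best ranked, 15 of 20 were within 500 bp.

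Most best summits lay upstream of the start codon. CLR-1 had 29 of 31, 23 of 25 and 23 of 25 upstream in lists 1 to 3, and CLR-2 had 30 of 34, 21 of 21 and 30 of 32. Counting all peaks within the limit, 8.82%, 13.3% and 11.5% of CLR-1 summits lay inside the member gene, a mean of 11.2% ± 2.27 (SD, n = 3 lists). For CLR-2 the shares were 14.3%, 3.57% and 9.30%, a mean of 9.05% ± 5.36 (SD, n = 3 lists). The ranges of the 2 factors overlap. The CLR-1 mean moved to 6.62% without CLR-1 list 2, 5.59% without CLR-2 list 1, 4.99% without CLR-2 list 3 and 17.3% without XLR-1 Avicel list 3. NCU00441, NCU07767 and NCU10144 held summits of both factors downstream of the start codon. NCU07767 had CLR-1 summits 1920 and 1849 bp and CLR-2 summits 1869 and 1850 bp downstream, with folds of 5.70 and 9.22 for CLR-1.

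**Figure D4:**
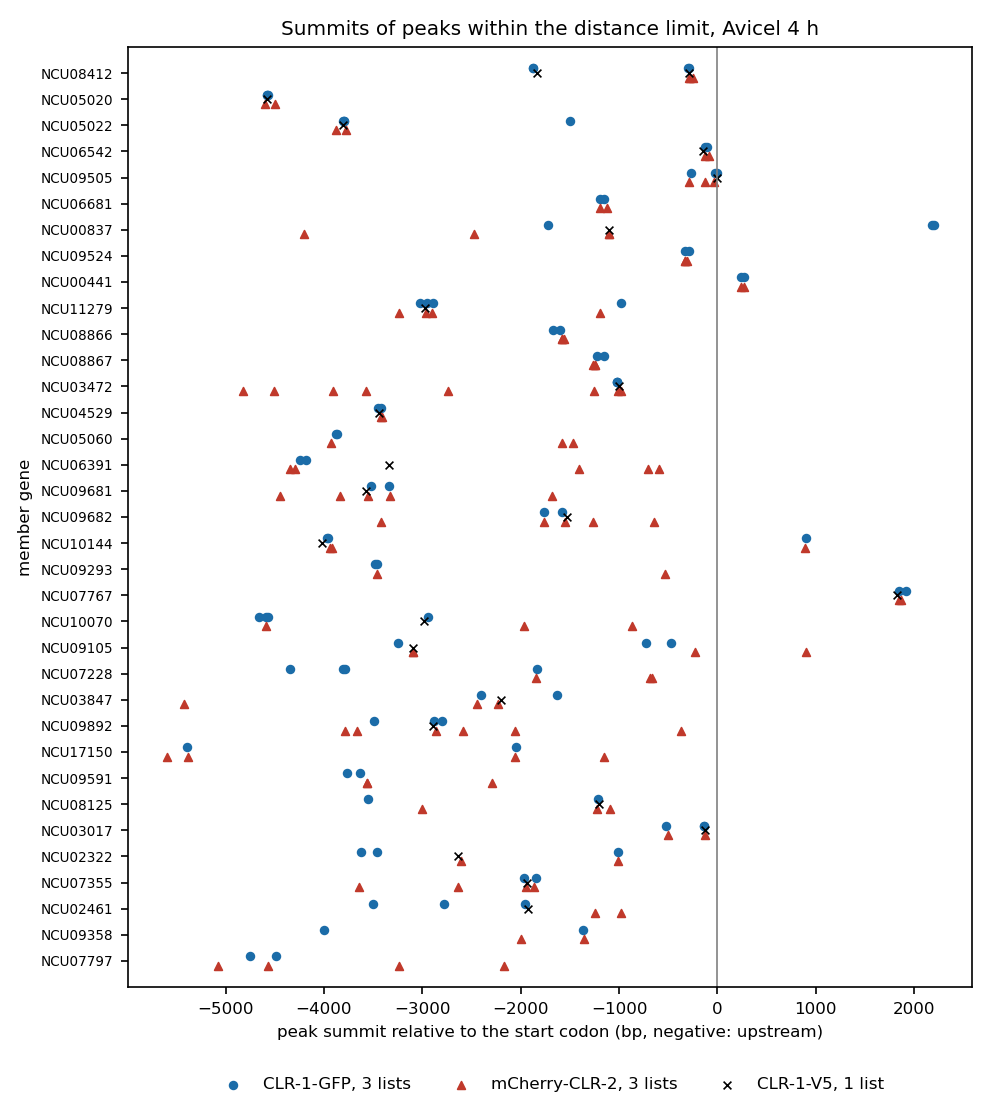
Summits of all peaks within the limit at each of the 35 members (rows), in bp from the start codon along the direction of transcription (horizontal axis, negative is upstream), for 3 CLR-1-GFP lists, 3 CLR-2 lists and the CLR-1-V5 list at 4 h on Avicel. At NCU09524 the 5 summits fall between 286 and 334 bp upstream, while at NCU07228 the median distance between the factors is 2507 bp.

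Many members stand beside long stretches without an annotated gene. The gap to the next gene upstream had a median of 4830 bp and ran from 85 bp at NCU09524 to 32475 bp at NCU11279. It was at least 5000 bp at 17 of 35 members, or 48.6%, against 7.86% of 6868 genes with a listed start codon. The share was 19.9% for genes with all 3 factors, 4.82% for CLR-1 alone and 14.9% for CLR-2 alone. The members and the 3 other sets chosen by CLR peaks share the limit of 5000 bp on the distance of a peak. The 6868 genes have no such limit and need no CLR peak, so 7.86% is not a matched background. Peaks name genes on either side of them, and how far this adds to the members' share was not tested. With a limit of 1500 bp only 10 genes met the rule and 2 of them, or 20%, had such a gap. With no limit it was 44 of the 63 genes with an annotated upstream neighbour, or 69.8%, so the share moves with the limit. Without XLR-1 Avicel list 3 it was 44 of 121, or 36.4%. After NCU11279 the longest gaps were 29219 bp at NCU02461, 21545 bp at NCU09358, 19916 bp at NCU09105 and 19625 bp at NCU09591.

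Median ranks also lay apart on either side of that length. The 17 with gaps of at least 5000 bp had median fold percentiles of 28.1, 23.8 and 23.7 in the CLR-1 lists, against 58.5, 53.9 and 70.7 for the other 18. In CLR-2 list 1 the order was reversed, 81.6 against 46.8, while CLR-2 lists 2 and 3 gave 34 and 41.1 against 74.0 and 62.1. The median distance between the factors' summits was 386.5 bp at long gaps and 65 bp elsewhere. Over all distances, the peaks of the 6 lists that name a member numbered 14 in the median at long gaps and 5 elsewhere, up to 28 at NCU11279. CLR-2 at 24 h named 1 of the 17 and 5 of the 18, whereas CLR-1-V5 named 11 and 12. A peak names only the gene it lies in and genes listed on either side. A longer gap thus leaves room for more peaks naming the same gene and for summits farther apart. Nothing is therefore read from the peak numbers or the summit distances of the 2 groups. The split was made after these values were seen, so it has no test.

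**Figure D5:**
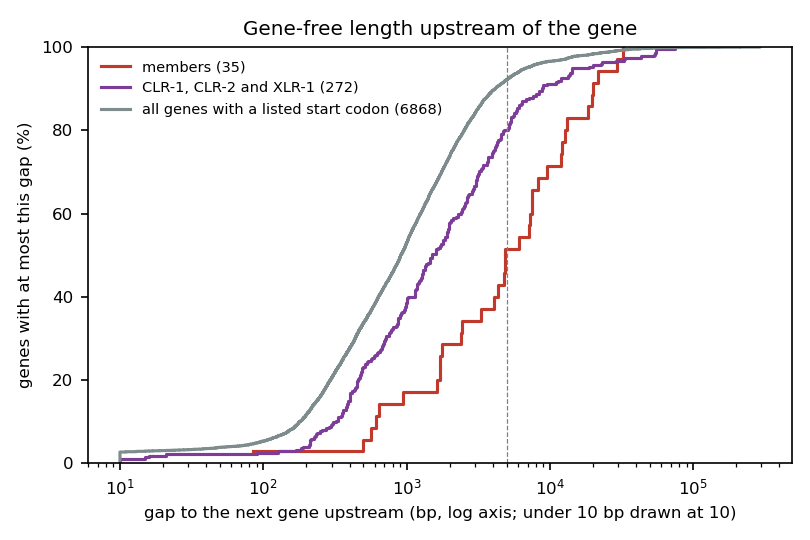
Cumulative percent of genes (vertical axis) by the length of the gene-free gap upstream of the gene (horizontal log axis, bp), for the members, for genes with all 3 factors and for all genes with a listed start codon; the dashed line marks 5000 bp. The members' curve lies to the right of the other 2 over most of its length, with medians of 4830, 1504 and 912 bp. The set of all genes with a listed start codon has no limit on the distance of a peak.

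No list outside the rule named NCU07228, NCU09293, NCU17150, NCU07797 or NCU09591. NCU07228 (chromosome V, 6191093 to 6191712) was nevertheless in all 6 CLR lists at 4 h on Avicel, with CLR-1 folds of 3.42, 4.42 and 3.32 and CLR-2 folds of 0.56, 3.20 and 1.06. NCU17150 (chromosome VI, 4020109 to 4020971) had CLR-1 folds of 3.06 and 2.47 in lists 1 and 3 and CLR-2 folds of 0.78, 2.67 and 0.99. These are low CLR-1 values, below the medians of their lists. NCU09293 (chromosome VII, 51151 to 52158) had higher CLR-1 folds, 5.91 and 14.8 in lists 1 and 2, but both best summits lay inside another annotated gene, 3460 and 3479 bp upstream. Its CLR-2 folds were 0.32 and 2.12. NCU10144 also had 2 CLR-1 summits inside another gene, and leaving such summits out left 33 of the 35.

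Read by position rather than by the names in the tables, peaks of XLR-1 rarely overlapped the members' CLR peaks. Over 6 XLR-1 lists, only NCU00837 had a CLR-1 peak overlapping an XLR-1 peak by at least 1 bp, and only NCU11279 had such a CLR-2 peak, both in Avicel list 3. Of the 273 genes with all 3 factors, 250 had such an overlap at a CLR-1 peak. The nearest XLR-1 summit lay 528 bp to 21688 bp from the CLR-1 summits, with a median of 4351 bp, against 26 bp for those 273 genes. The rule fixes the direction of this difference. The gene columns of xylan list 2 repeat those of xylan list 1. By position, 2 members had the listed start codon nearest to a peak of xylan list 2, with no limit on distance.

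A few members are neighbours of known wall-degradation genes. NCU00837 lies 895 bp from gh61-7, a lytic polysaccharide monooxygenase gene, and NCU09681 lies 151 bp from gh6-2, a cellobiohydrolase gene, with its partner NCU09682 at 7255 bp. NCU05060 lies 6067 bp from the endoglucanase gene gh7-1 and NCU07228 lies 6947 bp from the endoxylanase gene gh11-2. That makes 5 of 35 members within 10000 bp of a gene on the lists, or 14.3%, against 5.86% of genes with all 3 factors and 4.98% of all genes. The 5 come from 4 places in the genome, and 1 shared locus accounts for 2 of them. A peak near such a pair cannot be given to 1 of the genes from these data.

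Of the pathway lists themselves, 22 of 85 genes had both CLR factors, where 5.35% of all genes did, and 11 of these had XLR-1 in at least 2 Avicel lists. Cellulose degradation had 12 of 26 genes with both CLR factors, 4 of them with XLR-1 in at least 2 Avicel lists, and none among the members. With 0.405% of all genes in the group, nothing is read from that 0. Xylan degradation and pentose use had 2 of 19, both with XLR-1, and sugar transport had 2 of 10. Mannan and pectin degradation had 2 of 8, one being the member NCU08412.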

How the data were processed

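Chromatin immunoprecipitation was read out as 17 peak tables from 17 of 22 samples. The submitters' processing notes name Bowtie2 as the aligner. The file headers name MACS as the peak caller, while its version, settings and control are not given in the material at hand. The authors deposited, for each peak, a count of tags, a score (a log10-scaled p-value, per the file headers), a fold enrichment (a ratio to local background) and, except for CLR-1 at 24 h, a false discovery rate in percent. The authors called peaks per library, and coordinates are in assembly NC12. CLR-1-GFP tables from 4 h measure gene distances from the peak start and the others from the summit.

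From these, genes were taken from the gene columns of the tables, on 7 chromosomes, with a peak centre within 5000 bp of a listed start codon; XLR-1 counted at any distance. For each gene and list the peak with the highest fold was used. XLR-1 xylan list 2 was used by position only. Strand was taken from the side of the start codon, which fitted 98.3% of entries. The rule was checked on simulated tables. A planned exact permutation test of summit positions is not reported, because the rule used the same peaks. Python 3.11.15, scipy 1.17.1, pandas 2.3.3, numpy 2.4.6 and matplotlib 3.10.9 were used. Total reads are unknown, so no interval from depth is given. Named genes were the members on the pathway lists, the 12 with the best median fold percentile, those in all CLR lists on Avicel and up to 3 in no list outside the rule; other names were chosen after their values were seen. The members and lists were chosen with earlier results of these data known. Alternatives changed the number of lists, the distance, the fold, score and false discovery rate limits, the reading of XLR-1 and each list in turn. Promoter motifs were not analysed here.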

Additional observations from a re-analysis of the deposited data

How the results depend on the processing

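The number of members was 35 and moved by more than 1.5 times under 8 settings other than leaving out a list. It was 7 with all 3 lists of each CLR factor, 137 with at least 1, 10 within 1500 bp and 64 with no distance limit. It was 16 with a fold of at least 1, 2 with a fold of at least 5 and 16 with a false discovery rate of at most 5%. When XLR-1 counted only within 5000 bp it was 55. Leaving out one list gave 15 to 121. That step also moved the number by more than 1.5 times for XLR-1 Avicel list 3 and for each CLR list except CLR-2 list 2. The number of members kept within 1.5 times under 12 of 26 alternatives. The share in the CLR-1-V5 list was 65.7%, and became 85.7% with all 3 lists, 38.7% with at least 1, 81.2% with no limit and 46.7% with a score of at least 100 (57.9% to 85.7% leaving out one list). The CLR-1 24 h share was 54.3%, and became 80% within 1500 bp, 76.6% with no limit, 73.3% with a score of at least 100 and 100% with a fold of at least 5 (33.3% to 72.7%, the extremes without CLR-1 list 3 and XLR-1 Avicel list 3). The CLR-2 24 h share was 17.1%, and became 37.5% and 100% with folds of at least 1 and 5 (9.52% to 34.7%). The share of members named in both sucrose lists was 14.3% (10% to 20.7% leaving out one list). The share was 0% with a fold of at least 5 or a false discovery rate of at most 5%. These limits also applied to the lists outside the rule. Sucrose list 2 had a highest fold of 3.92 and a median false discovery rate of 17.7%. The fold limit thus fixed its 0% in advance, and nothing is read from either 0%. The summit distance of 137.5 bp became 385.5 bp when XLR-1 counted only within 5000 bp (109.5 to 295.75 bp). The share of CLR-1 summits inside the gene, 11.2%, fell below that of CLR-2 within 1500 bp (30.2%), with a fold of at least 1 (11.6%) or 5 (27.8%), with a false discovery rate of at most 5% (4.42%) and without XLR-1 Avicel list 3 (17.3%; 4.99% to 17.3%). Apart from the sucrose share at a fold of at least 5, the cause of these shifts was not tested. Among alternatives chosen after seeing the data, 33 members were left without CLR-1 summits inside other genes and 26 with summits within 500 bp. Taking the nearest gene gave 43, of which 26 were among the 35; a score of at least 100 gave 30, of which 11 were. The motif search was not run. No paired analysis was possible because the membership comes from no fitted test and the numbers on the lists do not name a shared culture. Depth and the control behind the folds are unknown.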

Other observations

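Beside the 35, 20 genes with both CLR factors were named by XLR-1 only from beyond 5000 bp, among them fkr-3 (NCU04371), fi (NCU04990) and cac-3 (NCU06679). A further 29 genes met the rule with no limit on distance and not within 5000 bp. The 4 that a limit of 6000 bp added were NCU07250, NCU08578, NCU10702 and NCU17044. None of these genes was part of a comparison.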
